A study of Mus musculus with 5 samples.

Results

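Neuregulins and the other growth factors of the EGF family are membrane-anchored ligands that are cut free and then bind the ERBB receptor tyrosine kinases. In the developing heart, NRG1 from the endocardium and endothelium acts on cardiomyocytes, where ERBB4 binds it and pairs with ERBB2, a receptor without a known ligand, and this signal is needed for the trabeculae of the ventricle. HBEGF binds EGFR and ERBB4 and takes part in valve formation, and ERBB3, whose kinase is weak, is best known in the heart from the endocardial cushions. The genes described here are the ligand genes Nrg1 and Hbegf and the receptor genes Egfr, Erbb2, Erbb3 and Erbb4, chosen by name, which makes 6 of the 49671 genes in the count table.

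RNA was sequenced from whole hearts of C57BL6/J mice at postnatal day 2. Charme WT hearts, with the intact Charme locus, made up 3 pools of 9 hearts each, and Charme KO hearts, in which a polyadenylation signal was inserted into the long noncoding RNA locus Charme, made up 2 pools of 3 hearts each. Genotype and hearts per pool therefore cannot be told apart, and p-values measure the spread between these pools of littermates. The question asked of the pools was whether the loss of Charme RNA went with another level of the ERBB genes in the neonatal heart.

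Each pool held between 16721055 and 21646378 fragments on genes. Charme itself was at 39.3, 10.4 and 14.0 CPM (counts scaled to a common library size) in the Charme WT pools and at 4.04 and 3.54 in the Charme KO pools, and it was called lower (log2 fold change of -2.49, SE 0.549, adjusted p = 0.0763, edgeR's quasi-likelihood test). The markers of heart cells were present in every pool. Summed cardiomyocyte markers ranged from 25874 to 30777 CPM in the Charme WT pools against 22271 and 24095 CPM in the Charme KO pools, with 0 of 5 called. Myh6 held much of this sum, at 14062 to 17256 CPM against 7348 and 12536 CPM. Myh6 and Actn2 were below every Charme WT pool in both Charme KO pools, as were 18.2% of all genes tested. Tnnt2, Tnni3 and Ryr2 overlapped between the genotypes. Both Charme KO pools also held RNA of tissue outside the heart. The 7 salivary gland markers summed to 326 and 24763 CPM there, against at most 0.253 CPM in a Charme WT pool, and the 4 adipose markers to 67.2 and 1004 CPM, against 28.3 to 40.4 CPM. Of these lists, 4 of the 4 tested salivary gland markers and 3 of the 4 adipose markers were called higher. The adipose marker not called, Cidea, held most of the Charme WT sum of that list. It was at 28.0 to 35.5 CPM against 23.6 and 136 CPM, so it was lower in Charme KO pool 1. Fibroblast markers summed to 1839 to 2225 CPM in the Charme WT pools and to 2660 and 2638 CPM in the Charme KO pools. Of this list, Postn was at 729 to 1013 CPM against 1663 and 1145 CPM, above every Charme WT pool, as in 17.8% of all genes tested. Col1a1 was at 724 to 801 CPM against 498 and 1068 CPM, so it overlapped, as did Pdgfra, Dcn and Tcf21. The median log2 fold change of the list was 0.06, and 0 of 5 were called. Erythroid markers summed to 665 to 997 CPM against 1808 and 1236 CPM. Of these, 1 of 3 was called higher, Hba-a1, and all 3 were above every Charme WT pool in both Charme KO pools, against 17.8% of all genes tested. Fewer cells of a type and less RNA per cell cannot be told apart in such whole-heart samples.

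None of the 6 ERBB genes was called between the genotypes. A gene was called at a Benjamini-Hochberg adjusted p under 0.1 by edgeR's quasi-likelihood test and a mean of at least 1 FPKM (fragments per kilobase of exon, scaled as CPM) in at least 1 genotype, and 305 of the 14880 genes tested met this, or 2.05%. All 6 genes were among those tested, and 0 of them had an unadjusted p under 0.05, against 2767 of all genes tested, or 18.6%, so a count of 0 among 6 says little. The likelihood ratio test of edgeR called 6.27% of all genes tested and DESeq2 6.81%, and each called 0 of the 6 genes, although 1 of them had an unadjusted p under 0.05 by DESeq2. Nrg1 and Egfr lay under 1 FPKM in both genotypes and could not have been called at any p.

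In Charme WT hearts the levels spanned a wide range on the per-length FPKM scale (mean ± SD, n = 3). Erbb2 stood highest at 13.2 ± 1.68 FPKM. It was followed by Hbegf at 2.73 ± 0.333 FPKM and Erbb3 at 2.48 ± 0.716 FPKM, whose ranges overlapped, and by Erbb4 at 1.58 ± 0.345 FPKM, whose range overlapped that of Erbb3. Egfr at 0.519 ± 0.0819 FPKM and Nrg1 at 0.163 ± 0.0368 FPKM came last and were each separated from their neighbour in every Charme WT pool. The levels depend on the length taken for each gene: with the longest annotated transcript in place of all exons, Nrg1 stood at 0.311 ± 0.0704 FPKM and Hbegf at 4.57 ± 0.557 FPKM, still at the bottom and in second place.

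**Figure D1:**
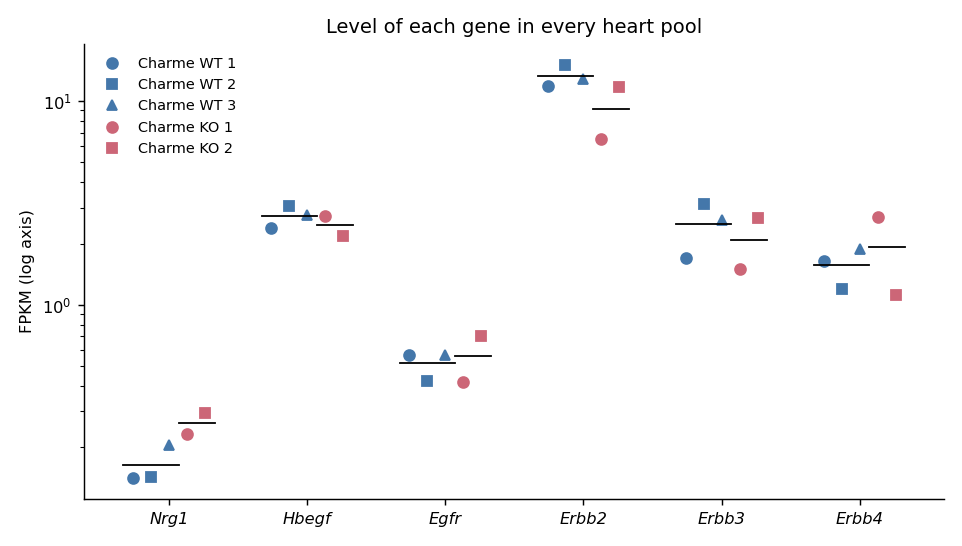
FPKM of the 6 ERBB genes (log axis) in the 3 Charme WT pools (blue) and the 2 Charme KO pools (red), with a black line at the mean of each genotype. Erbb2 was the highest gene in all 5 pools and Nrg1 the lowest, and Erbb4 lay at 2.71 FPKM in Charme KO pool 1 against 1.12 FPKM in pool 2.

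Nrg1 (ENSMUSG00000062991; GRCm38, chromosome 8, 31814551 to 32884029, minus strand) encodes the neuregulin that binds ERBB3 and ERBB4. It had 30, 26 and 42 fragments in Charme WT pools 1 to 3 and 34 and 68 fragments in Charme KO pools 1 and 2, which gave 0.141, 0.142 and 0.205 FPKM against 0.233 and 0.294 FPKM. Each Charme KO pool exceeded all 3 Charme WT pools, an order that 17.8% of all genes tested showed. The log2 fold change was 0.71 (SE 0.355, 95% interval -0.08 to 1.5, adjusted p = 0.313, quasi-likelihood test), so the gene was not called. So few fragments are imprecise: the exact Poisson 95% interval, which covers counting error only, ran from 1.53 to 2.87 CPM in Charme WT pool 3 and from 1.67 to 3.37 CPM in Charme KO pool 1, and these overlapped. An antisense lincRNA, Gm26578, shares 482 exonic bases with Nrg1 on the opposite strand, and the counting used strand. The 4 endocardial markers (Npr3, Nfatc1, Cytl1 and Tmem100) summed to 98.1 to 137 CPM in the Charme WT pools and to 111 and 105 CPM in the Charme KO pools, with 0 of 4 called.

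Hbegf (ENSMUSG00000024486; chromosome 18, 36504927 to 36515805, minus strand) encodes the heparin-binding ligand of EGFR and ERBB4. Its levels were 2.39, 3.06 and 2.75 FPKM in the Charme WT pools and 2.74 and 2.18 FPKM in the Charme KO pools, from 187 to 263 fragments per pool. The genotypes overlapped, with Charme KO pool 1 inside the Charme WT range and pool 2 below it. The log2 fold change was -0.16 (SE 0.238, 95% interval -0.69 to 0.38, adjusted p = 0.746, quasi-likelihood test).

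Erbb2 (ENSMUSG00000062312; chromosome 11, 98412470 to 98437716, plus strand) encodes the shared partner of the ligand-binding receptors. It was measured from 1270, 1391 and 1317 fragments in the Charme WT pools and 481 and 1357 fragments in the Charme KO pools, or 11.8, 15.1 and 12.8 FPKM against 6.54 and 11.7 FPKM. Both Charme KO pools lay below every Charme WT pool, an order that 18.2% of all genes tested showed, but pool 2 lay just under Charme WT pool 1 while pool 1 stood far lower. The log2 ratio to the Charme WT mean was -1.02 in Charme KO pool 1 and -0.18 in pool 2. Over both pools the log2 fold change was -0.54 (SE 0.251, 95% interval -1.10 to 0.02, adjusted p = 0.285, quasi-likelihood test). The gene Mien1 shares 9 exonic bases with Erbb2 on the opposite strand.

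Erbb4 (ENSMUSG00000062209; chromosome 1, 68032186 to 69108059, minus strand), the neuregulin receptor of cardiomyocytes, moved in opposite directions in the pair of Charme KO pools. Its levels were 1.65, 1.20 and 1.88 FPKM in the Charme WT pools and 2.71 and 1.12 FPKM in the Charme KO pools. Charme KO pool 1 was the highest of all pools and pool 2 the lowest. Their log2 ratios to the Charme WT mean were 0.78 and -0.50. The gap between these pools, 1.27 on the log2 CPM scale, was exceeded by 6.54% of all genes tested and was larger than the range of 0.64 over the Charme WT pools. The log2 fold change was 0.27 (SE 0.347, 95% interval -0.50 to 1.04, adjusted p = 0.693, quasi-likelihood test).

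Erbb3 (ENSMUSG00000018166; chromosome 10, 128567523 to 128589652, minus strand) encodes the receptor that signals mainly through its partners to PI3 kinase. It was at 1.70, 3.11 and 2.62 FPKM in the Charme WT pools and at 1.51 and 2.67 FPKM in the Charme KO pools. Charme KO pool 1 was again low, and pool 2 lay inside the Charme WT range, so the genotypes overlapped. The log2 fold change was -0.23 (SE 0.324, 95% interval -0.96 to 0.49, adjusted p = 0.718, quasi-likelihood test), and the Charme WT pools already differed among themselves by 0.86 log2 units.

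Egfr (ENSMUSG00000020122; chromosome 11, 16752203 to 16918158, plus strand), the receptor of EGF and HBEGF, was at 0.566, 0.425 and 0.567 FPKM in the Charme WT pools and at 0.419 and 0.701 FPKM in the Charme KO pools. Charme KO pool 1 was the lowest of all pools and pool 2 the highest, so the genotypes overlapped. The log2 fold change was 0.12 (SE 0.309, 95% interval -0.57 to 0.81, adjusted p = 0.853, quasi-likelihood test). In Charme KO pool 2, the 4 markers of lung epithelium, which include the general epithelial genes Epcam and Cdh1, summed to 87.5 CPM, against 2.76 CPM in pool 1 and 0.283 to 1.60 CPM in the Charme WT pools. Nearly all of this sum was Epcam at 55.7 CPM and Cdh1 at 31.7 CPM, while Sftpc, specific to the lung, was at 0.0897 CPM in pool 2 and 0.850 CPM in pool 1. The part of epithelial or salivary gland RNA in the level of Egfr, or of the other ERBB genes, was not tested.

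As shares of the summed FPKM of the receptor genes, Erbb2 made up 75.1%, 76.1% and 71.6% in the Charme WT pools and 58.5% and 72.2% in the Charme KO pools. Erbb4 made up 10.5%, 6.05% and 10.5% in the Charme WT pools and 24.3% and 6.91% in the Charme KO pools. The mix of receptors in Charme KO pool 1 therefore stood apart from the other 4 pools, while that of pool 2 lay inside the Charme WT range for Erbb2 and Erbb4. The ratio of Erbb2 to Erbb4 FPKM was 7.19, 12.6 and 6.80 in the Charme WT pools against 2.41 and 10.4 in the Charme KO pools, so it was lowest in Charme KO pool 1, and the genotypes overlapped. Erbb3 made up 10.8%, 15.7% and 14.7% against 13.5% and 16.5%, which overlapped. Egfr made up 3.59%, 2.14% and 3.18% in the Charme WT pools and 3.75% and 4.33% in the Charme KO pools, so its share was above the Charme WT range in both Charme KO pools, by little in pool 1. The level of Egfr itself was the lowest of all pools in pool 1, at 0.419 FPKM, as was the summed receptor level. How often such an order of shares arises among other genes was not computed. The summed receptor level was 15.8, 19.9 and 17.9 FPKM in the Charme WT pools and 11.2 and 16.2 FPKM in the Charme KO pools.

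**Figure D2:**
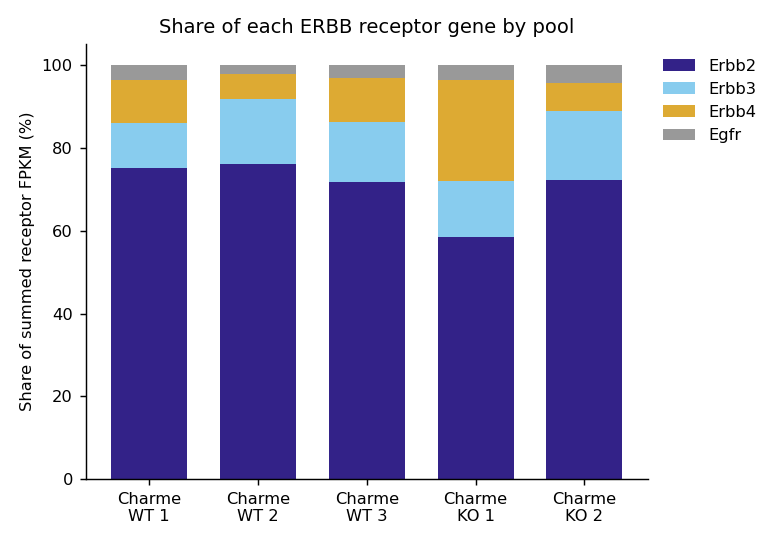
Share of each receptor gene in the summed FPKM of Egfr, Erbb2, Erbb3 and Erbb4 (percent), 1 bar per pool. Erbb2 made up 58.5% in Charme KO pool 1 and 71.6% to 76.1% in the other pools, and Erbb4 24.3% against 6.05% to 10.5%.

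The size or the direction of the receptor fold changes depended on which Charme KO pool was kept. Without Charme KO pool 2, Erbb2 was called lower (log2 fold change of -1.02, adjusted p = 0.00673) and Erbb4 higher (0.77, adjusted p = 0.0419), while that fit, in which the lone pool is assumed to vary like the Charme WT pools, called 31.7% of all genes tested. Without Charme KO pool 1, 4.28% of all genes were called and 0 of the 6 genes, Erbb2 stood at -0.18 and Erbb4 at -0.50, and 0 of the 6 had an unadjusted p under 0.05. Nrg1 lay above 0 with either pool, at 0.50 without pool 2 and 0.85 without pool 1. These calls are from edgeR's quasi-likelihood test.

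**Figure D3:**
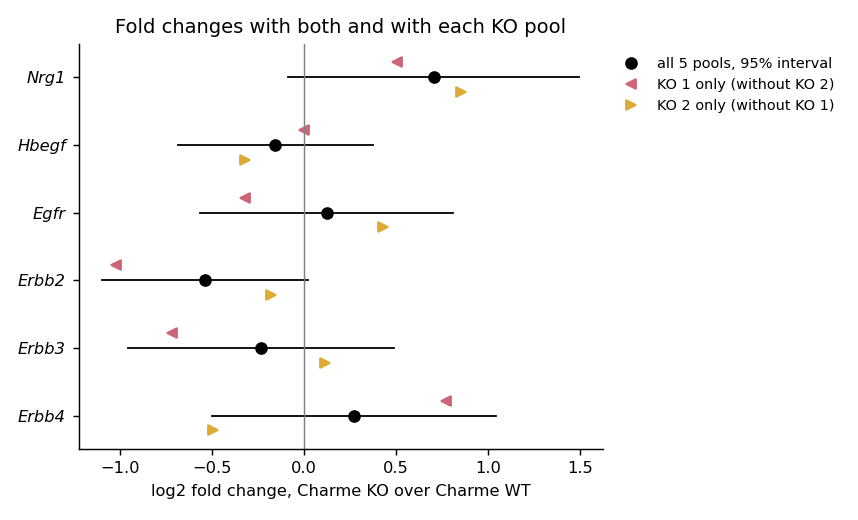
Log2 fold change of each gene, Charme KO over Charme WT, with all 5 pools (black point, line at the 95% interval) and with 1 of the Charme KO pools left out (coloured triangles). Every black interval crosses 0, and the triangles of Egfr, Erbb3 and Erbb4 lie on opposite sides of 0.

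Charme KO pool 1 also differed from the other pools by the base composition of the genes. GC content was taken from the longest annotated transcript of each gene. In the 3713 tested genes with the lowest GC content, the median difference in log2 CPM from the mean of the Charme WT pools was 0.48 in Charme KO pool 1 and 0.05 in pool 2. In the 3713 genes with the highest GC content it was -0.48 and -0.01. In single Charme WT pools the same medians lay between -0.09 and 0.06. Erbb4, with 40.6% GC, lies among the former with Nrg1 (42.7%) and Egfr (44.4%), and Erbb2, with 57.3% GC, lies among the latter. Erbb2 and Erbb4 deviated in Charme KO pool 1 in the direction of their GC group and further than its median, at -1.01 and 0.80, whereas Egfr deviated against it, at -0.29. Nrg1 also lay in the direction of its group in pool 1. Its log2 ratio to the Charme WT mean CPM was 0.52 there and 0.86 in pool 2. With a correction for exon length and GC content, the log2 fold change of Erbb2 was -0.32 (adjusted p = 0.33) and that of Erbb4 -0.0036 (adjusted p = 0.996) over all pools. Applied without Charme KO pool 2, the same correction gave -0.47 for Erbb2 (adjusted p = 0.117) and 0.35 for Erbb4 (adjusted p = 0.299), and neither was called, in the quasi-likelihood test.

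**Figure D4:**
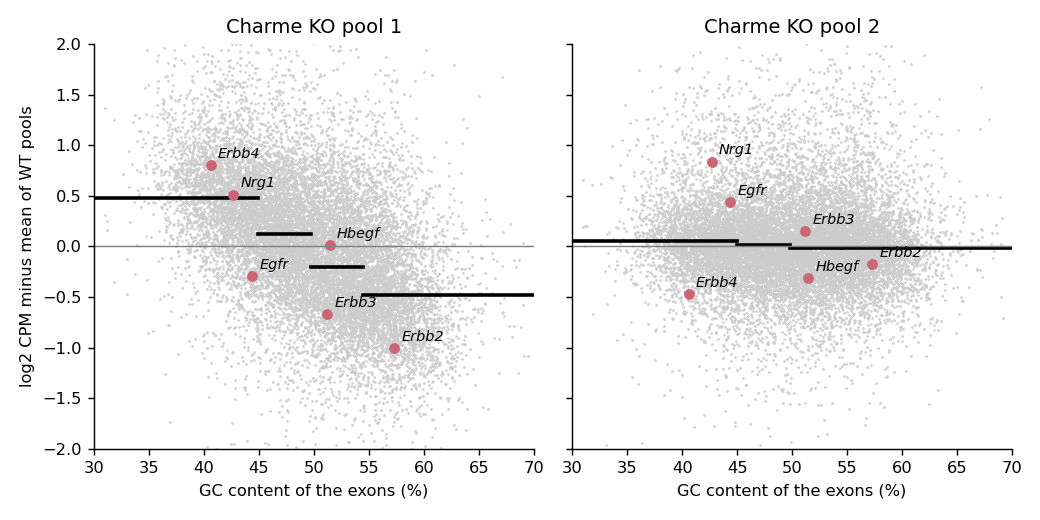
Log2 CPM minus the mean log2 CPM of the Charme WT pools against GC content (percent) for the tested genes (grey points), in Charme KO pool 1 (left) and pool 2 (right). GC content is that of the longest annotated transcript, although the axis names the exons. Black lines mark the median of each of 4 equal groups by GC content, and the 6 ERBB genes are red. The medians fall from 0.48 to -0.48 in pool 1 and stay between -0.01 and 0.05 in pool 2; genes beyond 2 log2 units are outside the axes.

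The other genes of the EGF family were scarce in these hearts. Of 9 further ligand genes, 5 had enough fragments to be tested; the quasi-likelihood test called 0 of them, and 2 had an unadjusted p under 0.05. All 5 lay under 1 FPKM in both genotypes and, like Nrg1 and Egfr, could not have been called at any p. Nrg4, a neuregulin known from brown fat, had 18, 7 and 12 fragments in the Charme WT pools and 12 and 74 in the Charme KO pools, a log2 fold change of 1.79 (SE 0.583, adjusted p = 0.174). It was high in Charme KO pool 2 alone, the pool with 1004 CPM of adipose markers, among them Ucp1 of brown fat at 710 CPM, and the part of that tissue in the level of Nrg4 was not tested.

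Egf, a ligand of EGFR, had 65, 52 and 79 fragments in the Charme WT pools and 76 and 150 in the Charme KO pools, or 0.280, 0.261 and 0.354 FPKM against 0.478 and 0.596 FPKM. Each Charme KO pool exceeded all 3 Charme WT pools, an order that 17.8% of all genes tested showed (log2 fold change of 0.85, SE 0.293, adjusted p = 0.190, quasi-likelihood test). The same pools held salivary gland markers, at summed levels of 326 and 24763 CPM, and Egf stood there at 5.38 and 6.72 CPM. The part of that tissue in the level of Egf was not tested. The remaining tested ligands were Nrg2 (log2 fold change of 1.03, adjusted p = 0.336), Btc (0.65, adjusted p = 0.365) and Tgfa (-0.22, adjusted p = 0.705). Nrg3, Areg, Ereg and Epgn were too low to test, with 0 to 20 fragments per pool.

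Over all the other pathway lists, these ligands included, the quasi-likelihood test called 0 of 75 tested genes, 10 of which, or 13.3%, had an unadjusted p under 0.05, a smaller share than the 18.6% of all genes tested. The counts at this threshold in single lists stand against the same 18.6%. Of the 10 genes of ligand shedding, 3 had an unadjusted p under 0.05, and the median log2 fold change was -0.12. The most abundant were Timp3, which inhibits the sheddases (log2 fold change of -0.02, adjusted p = 0.965), the sheddase Adam10 (-0.31, adjusted p = 0.371) and its relative Adam9 (0.35, adjusted p = 0.349).

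The 28 adaptors and effectors had a median of -0.15 against 0.02 over all genes tested and 3 members at an unadjusted p under 0.05. In 10 of them, or 35.7%, both Charme KO pools lay below every Charme WT pool, against the 18.2% of all genes given above. This share was the largest of any list here. It was 30% for ligand shedding, 17.6% for ERK response genes, 13.3% for receptor turnover and inhibition and 0% for the other ligands. Over the 75 tested genes of these lists together it was 24%, and 0 of them were called. Among the most abundant, the kinase Akt1 was at 107, 127 and 107 FPKM in the Charme WT pools and 81.3 and 96.2 FPKM in the Charme KO pools (log2 fold change of -0.36, adjusted p = 0.33). The adaptor Grb2, which couples the receptors to RAS, was at 50.6, 51.9 and 49.5 FPKM against 34.8 and 37.1 FPKM (-0.49, SE 0.164, adjusted p = 0.178), so its Charme KO pools were low alike, and Mapk3, the kinase ERK1, gave -0.13 (adjusted p = 0.742).

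Of the 15 genes of receptor turnover and inhibition, 1 had an unadjusted p under 0.05, and the median was -0.09. The most abundant were the ubiquitin ligases Nedd4 (log2 fold change of -0.14, adjusted p = 0.740) and Stub1 (-0.13, adjusted p = 0.735), and Erbin, which binds ERBB2 (0.23, adjusted p = 0.592). Of the 18 genes that respond to ERK signalling, 17 were tested, with a median of -0.04 and 1 gene at an unadjusted p under 0.05. Ccnd1, a cyclin of the G1 phase, gave -0.52 (adjusted p = 0.316), the feedback inhibitor Spry2 -0.37 (adjusted p = 0.335) and the early response gene Ier3 0.15 (adjusted p = 0.739), again by the quasi-likelihood test.

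The pair of genes that the likelihood ratio test and DESeq2 both called among these lists, named here after their values were seen, were Stat5b and Lrig1. Stat5b, a transcription factor activated by ERBB4, was at 9.70, 11.0 and 12.6 FPKM in the Charme WT pools and at 7.07 and 6.98 FPKM in the Charme KO pools. Lrig1, which promotes the degradation of ERBB receptors, was at 9.0, 9.92 and 10.7 FPKM against 5.45 and 7.26 FPKM. In both genes all Charme KO pools lay below all Charme WT pools, an order that 18.2% of all genes tested showed. Since both were picked by calls on these same pools, that order is not separate support. Their log2 fold changes by the quasi-likelihood test were -0.66 (SE 0.188, adjusted p = 0.142) and -0.63 (SE 0.199, adjusted p = 0.164).

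**Figure D5:**
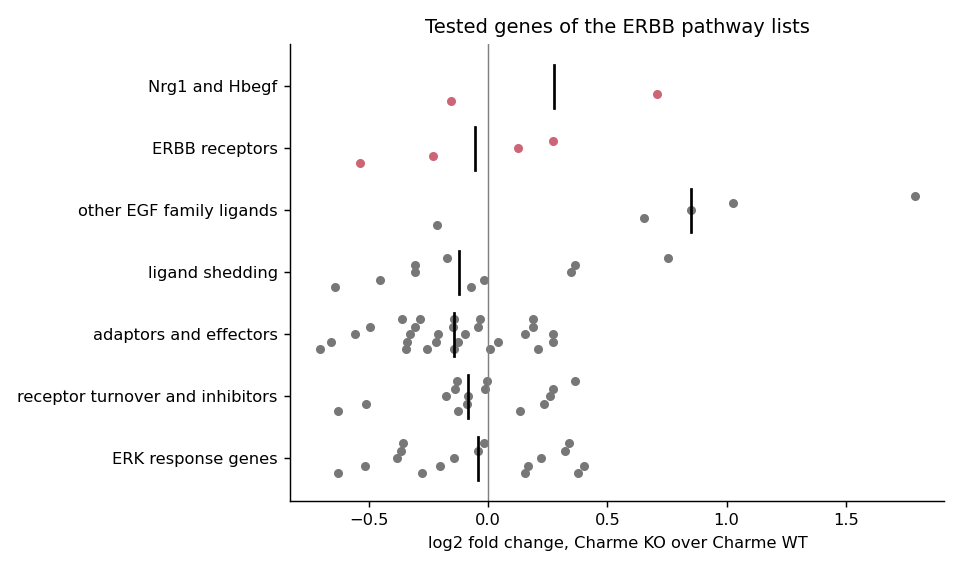
Log2 fold change, Charme KO over Charme WT, of the 6 ERBB genes (red) and the 75 tested genes of the other lists (grey), 1 point per gene, with a black line at the median of each list. The medians of the 4 lists from ligand shedding to ERK response genes lie between -0.15 and -0.04, and no gene shown was called.

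Over the 5 pools, the genes whose log2 CPM was most like that of Erbb2 were Btbd6, Srsf4 and Asb8 (Pearson's r of 0.999 each), and 848 of the 10824 protein-coding genes compared had an r over 0.95 with it. The likest of Erbb4 were Trp53inp1, Vps37a and Kansl1l (r of 0.997 to 0.998, 155 genes over 0.95), and those of Erbb3 were Actn1, Chst1 and Ppp1r15b (r of 0.996 to 0.997, 110 genes over 0.95). For Nrg1 they were Tsr1, Nat2 and Ier5 (r of 0.991 to 0.997, 21 genes), for Hbegf Bcl10, Pip5k1a and Fli1 (r of 0.995 to 0.998, 40 genes) and for Egfr St3gal4, Tnfaip8l2 and Dact2 (r of 0.984 to 0.992, 36 genes). With 5 points that share depth, tissue content and base composition, these values only describe the pools.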

How the data were processed

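Whole-heart polyA RNA was sequenced from 3 Charme WT and 2 Charme KO pools at postnatal day 2, grouped by the genotype in the labels. The authors trimmed the reads with Cutadapt and Trimmomatic, discarded those under 35 nt, aligned them to GRCm38 with STAR and deposited raw counts of fragments per gene of Ensembl release 87, using strand; versions are not given in the sources used here. Without molecular identifiers in the reads, intervals cover counting error only. A deposited FPKM table was left out; FPKM here is the deposited count scaled by TMM library sizes and by the exon lengths of GENCODE M21 (GRCm38). A length of 1 kb was set for 23 tested genes without annotation. Pools of a genotype differed by more than sampling noise in every chi-square comparison of their counts. The values per degree of freedom were 17.5 to 29.9 between Charme WT pools and 159 between the Charme KO pools.

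Genes reaching 10 counts in 2 or more pools were normalized by TMM and tested for genotype over all 5 pools with edgeR 4.0.16 (quasi-likelihood, legacy = FALSE; R 4.3.3), p-values being adjusted over the whole table by Benjamini and Hochberg's method. The filter, normalization, adjusted p threshold of 0.1 and minimum of 1 FPKM follow the study, whose test was the likelihood ratio test. The SE is the size of the log2 fold change over the square root of F. The fit was tested on simulated counts with the same dispersion for every gene and pool and without a GC trend. That test therefore does not cover the spread between the Charme KO pools. Alternatives were the likelihood ratio test, DESeq2 1.42.0, other normalizations and filters, a replicate block, a spline correction for exon length and GC content, and leaving out each pool.

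Named are the 6 ERBB genes, all other EGF family ligands, called genes of the other lists, the 3 genes of each such list with the highest mean FPKM, and for each ERBB gene the 3 protein-coding genes with the highest Pearson r over the pools. The genes and lists were chosen with earlier results of these data known. Cell type marker lists other than those given in the text are not reported here.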

Additional observations from a re-analysis of the deposited data

How the results depend on the processing

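The number of genes called, 305, was 933 with the likelihood ratio test, 1014 with DESeq2, 33 when the replicate block and the correction for exon length and GC were combined, and 111 at an adjusted p under 0.05. Leaving out 1 pool gave 0 to 4610 calls: 2, 187 and 0 on removal of Charme WT pool 1, 2 or 3 (with 1315 genes at an unadjusted p under 0.05 by the quasi-likelihood test in the last case), 632 on removal of Charme KO pool 1 and 4610 on removal of Charme KO pool 2. The corrected fits on 4 pools, chosen after seeing the data, called 660 and 2081 genes on removal of Charme KO pool 1 and 2. Of the 6 ERBB genes, 0 to 2 were called when 1 pool was left out and 0 under every other alternative run. Of the other pathway genes, the likelihood ratio test called 2, DESeq2 2 and the correction for length and GC 1 (Adam10); leaving out 1 pool gave 0 to 21, and the corrected fits on 4 pools 3 and 8.

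Nrg1 and Erbb2 kept their direction under all 19 alternatives, from 0.19 to 0.91 and from -1.02 to -0.18 on the log2 scale. On removal of Charme KO pool 1, Egfr was 0.43, Erbb3 0.12 and Erbb4 -0.50, or 0.49, 0.13 and -0.45 when corrected. On removal of Charme KO pool 2, Hbegf was -0.0011, Egfr -0.32, Erbb3 -0.72 and Erbb4 0.77, or 0.22, -0.53, -0.48 and 0.35 when corrected. With the correction over all pools Erbb4 was -0.0036. The cause was not tested. The replicate block called 210 genes and gave Erbb2 -0.61 (adjusted p = 0.238) and Nrg1 0.89 (adjusted p = 0.374), and it changed no call of an ERBB gene. Pools with the same number correlated in their deviations from the genotype means with r = 0.137 for number 1 and 0.0778 for number 2. With 2 Charme KO pools, the deviations of either mirror those of the other, so each Charme WT pool has equal and opposite r with them. These values cannot decide whether pools with the same number are paired. An alternative with the deposited FPKM table was not run. Depth limited Nrg1 and the scarce ligands most.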
